A study of Mus musculus with 24 samples.

Results

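The mRNAs of 8 RNA-binding proteins that set how other mRNAs are translated and kept were followed in mouse neuroblastoma cells: the La-related proteins LARP1, LARP4 and LARP4B, the cytoplasmic poly(A)-binding proteins PABPC1 and PABPC4, the Y-box proteins YBX1 and YBX3, and PDCD4. Their rows were taken by gene symbol, and all 8 were found among the 12759 transcripts of the count tables and were tested in every comparison. The cells were Neuro-2a (N2a), an established mouse neuroblastoma line, grown in high-glucose medium without pyruvate with 10% serum. Ctrl cells (genotype label WT) had received an empty Cas9 vector with puromycin resistance, and KO cells the same vector with 3 guide RNAs against the exons of Eif4e3, which encodes a cap-binding protein of the eIF4E family. Both went through 2 rounds of transfection and puromycin selection, and neither is described as a single clone. Each genotype was treated with 250 nM Torin1, an inhibitor of the kinase mTOR, or with DMSO, its solvent, for 2 h. RNA-seq had 3 libraries per condition, and ribo-seq, in which ribosome-protected fragments (footprints) were sequenced after a short cycloheximide treatment, had 3 per condition except for 2 in ctrl DMSO, whose replicate 2 was not analysed here.

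mTOR complex 1 couples growth signals to translation. When it is inhibited, the 4E-binding proteins hold back eIF4E, and mRNAs that start with a terminal oligopyrimidine (TOP) motif, a C followed by a run of pyrimidines directly at the cap, leave the polysomes. Many TOP mRNAs encode ribosomal proteins and factors of translation, PABPC1 among them. LARP1 binds the cap and the TOP motif, LARP4 and LARP4B bind mRNA and PABP and are known to stabilise mRNA, PABPs coat the poly(A) tail and contact eIF4G, Y-box proteins package mRNA through a cold shock domain, and PDCD4 blocks the helicase eIF4A until the kinase S6K1, which acts downstream of mTOR, marks it for degradation.

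The RNA-seq libraries held 17047795 to 28910907 counts over the coding sequences (CDS) of transcripts listed for all conditions. The ribo-seq libraries held 669010 to 5284909, the smallest being ctrl DMSO replicate 3. Eif4e3 was at 12.0 to 18.2 CPM (counts as a share of the library's total) in the RNA-seq of ctrl and at 2.89 to 5.04 in that of KO, and its footprints at 11.6 to 22.0 and 2.29 to 6.61 CPM. Of 10 markers of sympathoadrenal neuroblastoma 9 were listed, with a summed mRNA level of 1934 to 2642 CPM over the 12 libraries. The lists of fibroblast, leukocyte and endothelial markers had 2 of 5, 1 of 4 and 1 of 3 listed, with sums from 1.27 to 4.58 CPM, and none of the 3 glial markers was listed. Levels are given as CPM with TMM scaling, so a loss of footprints over all mRNAs together cannot be seen in them, and fewer cells and less RNA per cell cannot be told apart. Translational efficiency (TE) is the ratio of the footprint CPM to the mRNA CPM of the same gene. A gene was called when edgeR's quasi-likelihood test gave it an adjusted p, over all transcripts, under 0.05.

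Since the TOP motif lies at the very start of an mRNA, the first 20 bases of the annotated transcripts are shown for the 4 members whose TE was called lower with Torin1 in KO cells, with a TOP-like run (a C at base 1 and at least 4 further C or T bases) in capitals. They are from GENCODE M21 on GRCm38, and for Ybx1 and Ybx3, where RefSeq (GRCm38.p6) places the start elsewhere, its first 20 bases are shown too. No RefSeq start of Pabpc1 was available.
Pabpc1 (chr15:36608954-36608973, minus strand): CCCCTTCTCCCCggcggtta
Pabpc4 (chr4:123282911-123282930, plus strand): gaaaagaagaggaaaaaaaa
Ybx1 (chr4:119294585-119294604, minus strand): agagacccggtcaggtggtg
Ybx1, RefSeq (chr4:119294494-119294513, minus strand): cgccattctcgctagttcga
Ybx3 (chr6:131388419-131388438, minus strand): cttcggggccgggagatcca
Ybx3, RefSeq (chr6:131388431-131388450, minus strand): gcgcggggccatcttcgggg

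Among the 8 members only Pabpc1 had such a run at its annotated start, of 12 bases. That start lies inside the gene, which on the minus strand begins at base 36609668, and no start further upstream was read. In Larp1, Larp4, Larp4b and Pdcd4, as in Pabpc1, a C with at least 4 pyrimidines after it lay somewhere in the 20 bases, which was so in 24.1% of the 10402 transcripts with an annotated start that were tested for TE in ctrl cells. A run from base 1 was there in 236 of the 10402 (2.27%) and in 8 of the 76 ribosomal protein mRNAs (10.5%). Only the transcript's own strand was read. With Torin1 the TE of transcripts with a run from base 1 changed by a median of -0.18 on the log2 scale in ctrl cells, against -0.0061 for all others, and 12.7% of them were called lower, against 4.09%. Without ribosomal protein mRNAs these shares were 9.65% and 3.47%. Among the ribosomal protein mRNAs 8 of 8 with the run at the annotated start were called lower (median -1.83) and 66 of 68 without it there (median -1.70). The starts in use were not measured, and whether mRNAs without the run at the annotated start have a TOP motif was not tested. In KO cells 25.6% of transcripts with the run were called lower, against 17.6% of the others. RefSeq starts the Ybx1 transcript 91 bases further in and that of Ybx3 12 bases further out, and gives Pdcd4 a second start 11120 bases into the gene. None of these RefSeq starts has the run at base 1.

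In ctrl cells treated with DMSO the members covered most of the range of mRNA levels. Per kilobase of CDS, Pabpc1 had 860 ± 68.7 CPM (SD, n = 3), more than 98.4% of 11028 transcripts, followed by Ybx1 with 807 ± 84.5, whose libraries overlapped those of Pabpc1. Ybx3 came next with 482 ± 33.6, then Larp1 with 152 ± 25.1, Pabpc4 with 106 ± 6.84, Larp4b with 53.5 ± 21.1 and Larp4 with 43.9 ± 22.2, of which Larp4b and Larp4 overlapped. Pdcd4 was the lowest, with 11.5 ± 1.39 CPM per kilobase, above 33.4% of transcripts. The order by footprints per kilobase was another: Ybx1 stood first with 896 ± 170 (SD, n = 2), then Ybx3 with 309 ± 44.3, Pabpc1 with 225 ± 59.0, Larp4 with 136 ± 24.9, Larp1 with 93.3 ± 9.83, Larp4b with 64.2 ± 11.3, Pabpc4 with 47.6 ± 10.1 and Pdcd4 with 19.8 ± 2.83. The ranges of neighbours in that order did not overlap. With Torin1, Pabpc1 dropped to the seventh place of the 8 in footprints per kilobase, at 31.9 ± 1.78 in ctrl and 25.9 ± 5.03 in KO, while the first place stayed with Ybx1 in both genotypes.

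**Figure D1:**
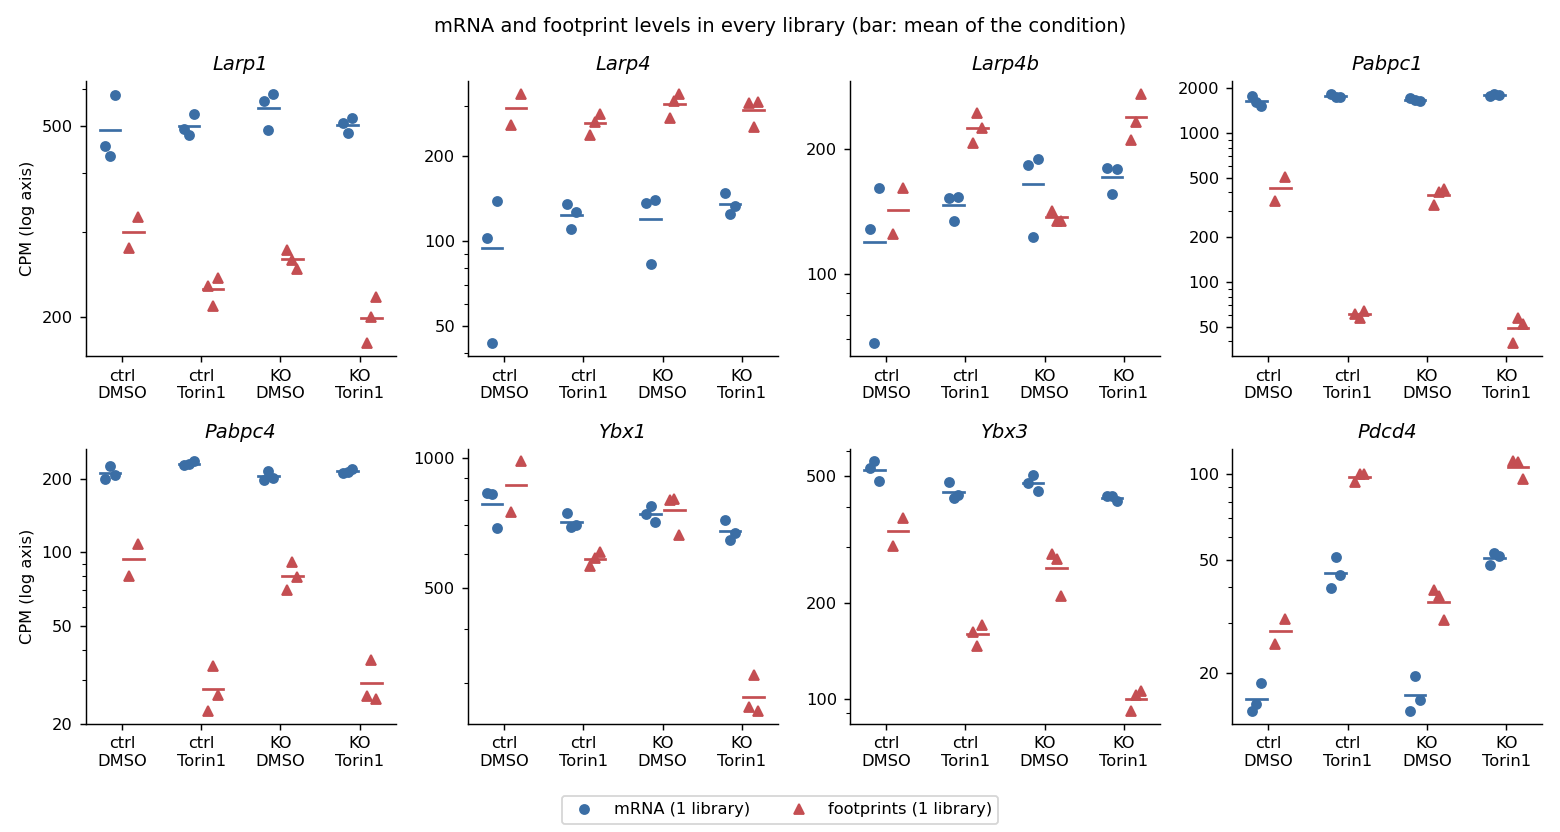
mRNA (blue circles) and footprint (red triangles) levels of the 8 genes in CPM on log axes with a scale of its own for each gene, 1 symbol per library and a bar at the mean of each condition. Footprints of Pabpc1, Pabpc4, Ybx1 and Ybx3 fell with Torin1 while their mRNA stayed within 0.23 log2 units, and Pdcd4 rose in both measures.

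Torin1 changed the footprints of most members, and without a replicate block Pdcd4 was the only member called in mRNA. In ctrl cells 6 of the 8 were called in footprints (15.6% of 10693 transcripts were called), 4 of them lower (9.93% of all) and 2 higher (5.69%). In KO cells 7 of the 8 were called in footprints (40.6% of 10822), 5 lower (22.1%) and 2 higher (18.5%). In mRNA 1 member was called in ctrl cells (2.73% of 10958 transcripts, 2.05% higher) and 1 in KO cells (9.97% of 11004, 6.23% higher), which was Pdcd4, higher in both. In TE 3 were called in ctrl cells, all lower (4.68% of 10432 called, 4.29% lower), and 5 in KO cells, 4 lower and 1 higher (28.4% of 10535 called, 17.8% lower and 10.6% higher). The median TE change of the 8 was -0.48 in ctrl and -0.77 in KO cells, against -0.0099 and -0.0095 over all transcripts. When libraries were scaled by their size alone, the median over all transcripts moved to 0.23 and 0.26 in footprints and to 0.16 and 0.24 in TE (ctrl and KO), and the split of calls turned from 1062 lower and 608 higher to 684 and 1691 in the footprints of ctrl cells, and from 2391 and 1999 to 1532 and 3766 in those of KO cells. In TE it turned from 448 lower and 40 higher to 325 and 183 in ctrl cells and from 1871 and 1119 to 1192 and 2700 in KO cells. No member that was called turned its direction with that scaling. The comparisons of Torin1 with DMSO and of KO with ctrl share libraries, so their values stand side by side.

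**Figure D2:**
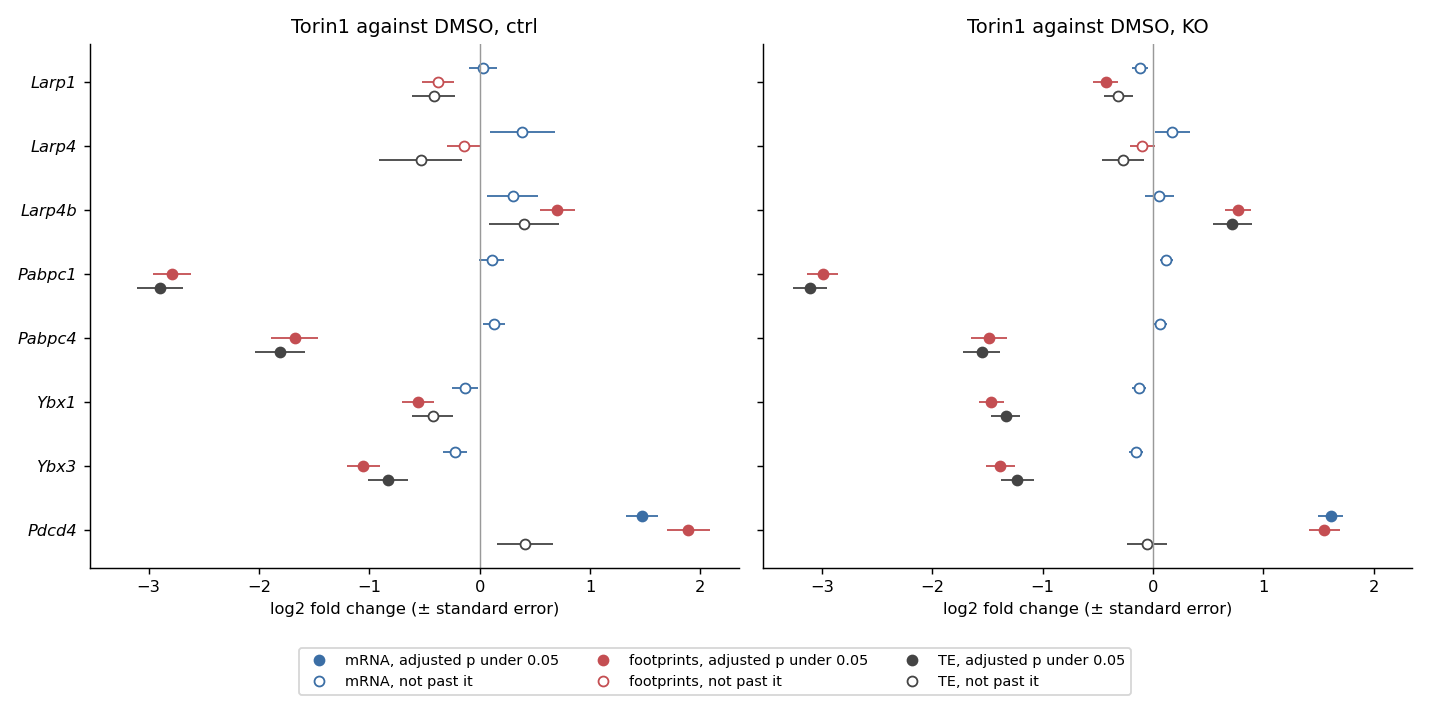
Log2 fold change with its standard error for Torin1 against DMSO in ctrl (left) and KO cells (right), in mRNA, footprints and TE, from edgeR. Filled symbols are past an adjusted p of 0.05. Pabpc1 lies farthest to the left, with a TE change of -2.90 in ctrl and -3.11 in KO, and Pdcd4 farthest to the right in mRNA and footprints.

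Of the genes of La-related proteins, Larp1 and Larp4b moved apart in footprints with Torin1. Without a replicate block Larp4 was called in no measure in either genotype. Larp1 (chr11:58009064-58062034, plus strand) encodes the TOP-binding repressor and has a CDS of 3219 nt. Its footprints stood at 278 and 323 CPM in ctrl DMSO and at 232, 211 and 241 in ctrl Torin1, and in KO cells at 275, 263 and 252 against 176, 200 and 220. All Torin1 libraries lay below all DMSO libraries of the same genotype. The decrease was called in KO cells, with a log2 fold change of -0.43 ± 0.11 (SE, adjusted p = 0.00306), and not in ctrl cells, at -0.38 ± 0.15 (adjusted p = 0.0834). Without scaling beyond library size the change in KO cells was -0.18 (adjusted p = 0.198), and the call was lost. Larp1 mRNA ranged from 434 to 586 CPM over the 12 libraries with overlap between all conditions. Its TE stood at 0.611 and 0.553 in ctrl DMSO and at 0.440 to 0.469 in ctrl Torin1, and at 0.430 to 0.536 and 0.346 to 0.422 in KO. The TE change passed the test in neither genotype (-0.42 ± 0.19, adjusted p = 0.282 in ctrl, and -0.31 ± 0.13, adjusted p = 0.0770 in KO), though with the replicate number as a block it was called in KO cells (-0.32, adjusted p = 0.0443).

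Larp4b (chr13:9093881-9174451, plus strand), whose product binds A/U-rich mRNA and PABP, was 1 of the 2 members with more footprints in Torin1. They stood at 125 and 161 CPM in ctrl DMSO and at 206, 243 and 224 in ctrl Torin1, and at 142, 134 and 134 in KO DMSO and 210, 231 and 271 in KO Torin1. Every Torin1 library was above every DMSO library. The increase was 1.63-fold in ctrl (log2 0.70 ± 0.16, adjusted p = 0.00546) and 1.71-fold in KO cells (log2 0.77 ± 0.12, adjusted p = 2.90e-06). In ctrl cells the call was lost without DMSO replicate 1 (0.49, adjusted p = 0.156) and without Torin1 replicate 2 (0.63, adjusted p = 0.0523). The mRNA of Larp4b was at 129, 68.3 and 161 CPM in ctrl DMSO and at 152, 134 and 153 in ctrl Torin1, and at 183, 123 and 189 in KO DMSO and 180, 156 and 178 in KO Torin1. Replicate 2 was the lowest of its group in all 4 conditions, and by far in DMSO. TE rose 1.64-fold in KO cells (log2 0.72 ± 0.18, adjusted p = 0.00346), the only member whose TE was called higher. In ctrl cells TE went from 0.973 and 1.00 to 1.36, 1.81 and 1.46 in the libraries with both assays, and the change in the model of all libraries was 0.40 ± 0.32 (adjusted p = 0.585). Without RNA-seq ctrl DMSO replicate 2 it was 0.69 (adjusted p = 0.0328).

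Larp4 (chr15:99970065-100016358, plus strand), its paralogue, binds poly(A) and PABP. Its footprints stood at 256 and 332 CPM in ctrl DMSO and at 237, 264 and 282 in ctrl Torin1, and at 271, 314 and 332 in KO DMSO and 307, 253 and 309 in KO Torin1, with overlap in both genotypes. The changes were -0.14 ± 0.15 (adjusted p = 0.578) and -0.10 ± 0.11 (adjusted p = 0.531), and both took the other sign without scaling beyond library size (0.068 and 0.15). Larp4 mRNA was at 102, 43.4 and 139 CPM in ctrl DMSO and at 135, 110 and 126 in ctrl Torin1, and at 137, 82.6 and 140 in KO DMSO and 148, 125 and 133 in KO Torin1. As for Larp4b, replicate 2 was the lowest library in all 4 conditions. With the replicate number as a block the mRNA change with Torin1 in ctrl cells was called (0.53, adjusted p = 0.0213), against 0.39 ± 0.30 (adjusted p = 0.436) without it, the value read here as not called. Among the members, Larp4 had the highest mean TE in DMSO, at 2.40 and 2.51 in ctrl and 1.98 to 3.80 in KO. In KO its range overlapped that of Pdcd4 (1.91 to 2.67), and the value of 3.80 was from replicate 2, where Larp4 mRNA was lowest.

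Related genes were taken from lists of family members and partners, and are described by counts and medians. Of 4 other La-related genes 3 were tested, and Ssb, which encodes the La protein itself, was called higher in footprints in both genotypes (log2 0.59 ± 0.15, adjusted p = 0.0128 in ctrl, and 0.58 ± 0.11, adjusted p = 5.58e-05 in KO). Its TE was called in KO cells (0.64 ± 0.12, adjusted p = 0.000331). Larp7, which binds the 7SK RNA, was not called in any of these (TE 0.29 in ctrl and 0.22 in KO). Of 6 further proteins known to bind TOP or TOP-like mRNAs, 1 was called lower in TE in ctrl cells (4.29% of all transcripts) and 1 lower and 2 higher in KO cells (17.8% and 10.6% of all). Hnrnpa1 had a TE change of -1.35 ± 0.20 in ctrl (adjusted p = 0.000149) and -1.21 ± 0.11 in KO cells (adjusted p = 3.83e-09), and Hnrnpd 0.22 ± 0.21 (adjusted p = 0.660) and 0.61 ± 0.13 (adjusted p = 0.000990).

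The genes of both poly(A)-binding proteins fell in footprints and TE in both genotypes, and Pabpc1 had the lowest fold change of the 8 members in each. Pabpc1 (chr15:36595661-36609668, minus strand), the main cytoplasmic poly(A)-binding protein, had 350 and 509 CPM of footprints in ctrl DMSO and 61.5, 57.4 and 64.1 in ctrl Torin1. In KO cells the levels were 331, 405 and 423 in DMSO and 38.8, 57.4 and 52.0 in Torin1. The lowest DMSO library was more than 5 times the highest Torin1 library. The footprints fell 6.90-fold in ctrl cells (log2 -2.79 ± 0.17, adjusted p = 1.66e-09) and 7.96-fold in KO cells (log2 -2.99 ± 0.14, adjusted p = 1.02e-17). Its mRNA stood at 1522 to 1783 CPM in ctrl DMSO and 1740 to 1836 in ctrl Torin1, at 1635 to 1709 in KO DMSO and 1783 to 1843 in KO Torin1, which overlapped in ctrl and not in KO cells, with changes of 0.11 ± 0.11 and 0.12 ± 0.060 that were not called. The TE of Pabpc1 went from 0.196 and 0.335 to between 0.0330 and 0.0368 in ctrl cells, and from between 0.194 and 0.259 to between 0.0217 and 0.0312 in KO cells. This was 7.46-fold lower in ctrl (log2 -2.90 ± 0.21, adjusted p = 1.15e-08) and 8.65-fold lower in KO cells (log2 -3.11 ± 0.15, adjusted p = 9.97e-14). In the change of TE, 0.0959% of transcripts lay below Pabpc1 in ctrl and 0.209% in KO cells.

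Set beside the 76 ribosomal protein mRNAs, the best known TOP mRNAs, whose median TE change was -1.77 in ctrl and -2.06 in KO cells, Pabpc1 was lower than all but 1 in ctrl and all but 2 in KO. In Pabpc1 the footprint counts were 314 to 1935 in DMSO and 85 to 124 in Torin1. Mouse has intronless genes of near-identical sequence, and reads that fit several transcripts cannot be told apart by mapping. Pabpc2 had 6 to 13 footprints in DMSO and 0 to 1 in Torin1, and Pabpc6 had 5 to 25 and 0, so that the sum of both was small beside Pabpc1 in every library.

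Pabpc4 (chr4:123262351-123298925, plus strand), which encodes the inducible poly(A)-binding protein, fell less in footprints and TE. Its footprints were at 80.3 and 109 CPM in ctrl DMSO and at 22.4, 34.2 and 26.1 in ctrl Torin1, and at 70.3, 91.8 and 79.2 in KO DMSO and 26.0, 36.4 and 25.2 in KO Torin1. All Torin1 libraries lay below all DMSO libraries, by 3.19-fold in ctrl (log2 -1.68 ± 0.21, adjusted p = 1.61e-05) and 2.80-fold in KO cells (log2 -1.49 ± 0.16, adjusted p = 6.27e-09). The mRNA was at 200 to 226 CPM in ctrl DMSO and 227 to 235 in ctrl Torin1, and at 198 to 216 in KO DMSO and 211 to 220 in KO Torin1, with changes of 0.13 ± 0.10 and 0.065 ± 0.063 that were not called. TE fell 3.50-fold in ctrl (log2 -1.81 ± 0.23, adjusted p = 1.76e-05) and 2.94-fold in KO cells (log2 -1.55 ± 0.17, adjusted p = 9.63e-08). Of the 76 ribosomal protein mRNAs 32 had a lower TE change than Pabpc4 in ctrl and 59 in KO cells. Its annotated start, shown above, is rich in A and G and holds no TOP-like run. Such a run was also missing at the annotated starts of 68 of the 76 ribosomal protein mRNAs. The start shown lies inside the gene, which begins at base 123262351, and no start further upstream was read. Whether Pabpc4 has a TOP motif was not tested. The counts behind its footprints were 31 to 439 per library.

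**Figure D3:**
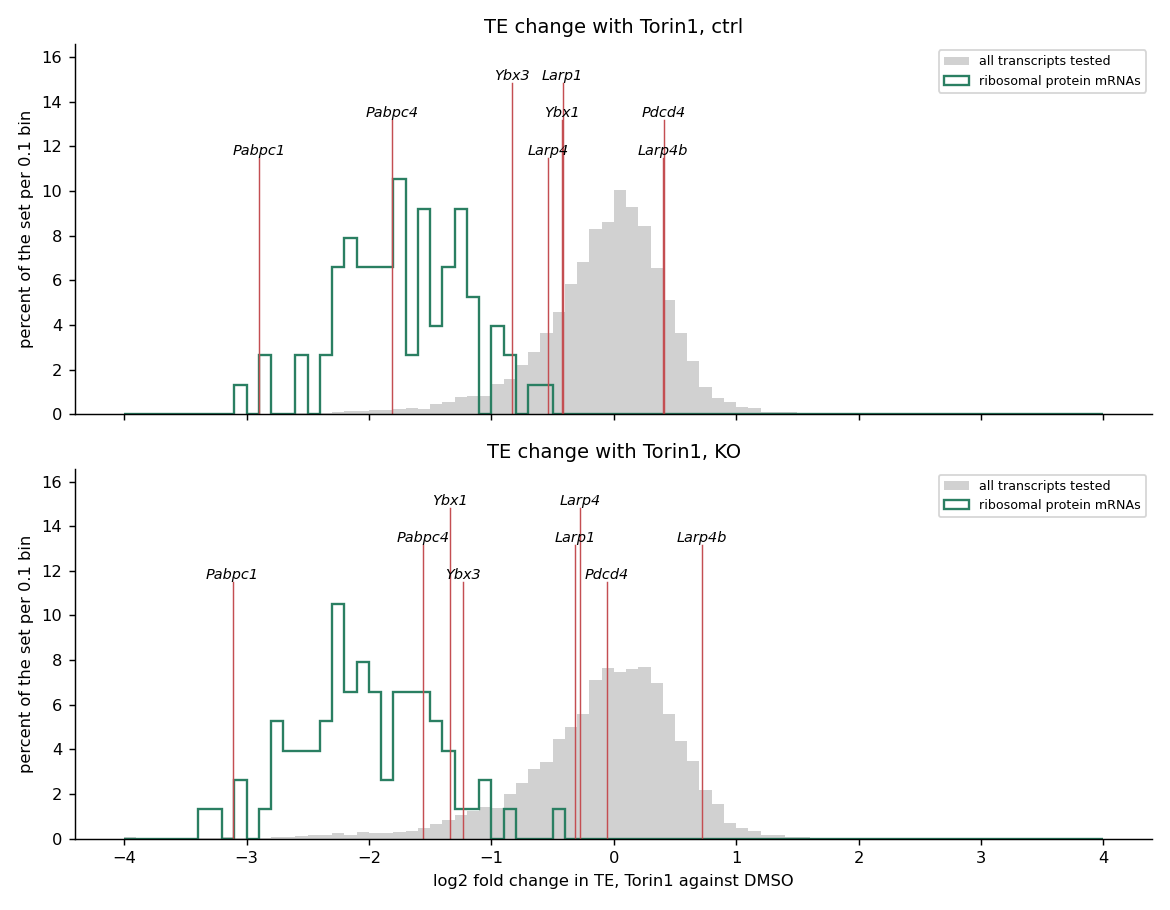
Distribution of the log2 TE change with Torin1 over all transcripts tested (grey) and over the 76 ribosomal protein mRNAs (green outline) in bins of 0.1, as percent of each set, with red lines at the 8 members. Values beyond 4 in either direction are drawn in the outermost bins. Pabpc1 is at the low end of the ribosomal protein mRNAs and Pabpc4 within them. Larp1, Larp4b and Pdcd4 lie to the right of all of them in both genotypes, as do Ybx1 in ctrl and Larp4 in KO cells.

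Of 13 PABP relatives and partners, 8 were tested in TE. In ctrl cells 1 was called lower (4.29% of all transcripts), and in KO cells 1 lower and 2 higher (17.8% and 10.6% of all). Pabpn1, the nuclear poly(A)-binding protein, had a TE change of -1.12 ± 0.21 in ctrl (adjusted p = 0.00195) and -1.11 ± 0.20 in KO cells (adjusted p = 0.000129). Gspt1, which encodes the release factor eRF3a and binds PABPC1, had 0.27 ± 0.18 (adjusted p = 0.501) and 0.38 ± 0.12 (adjusted p = 0.0207). All 14 listed genes of deadenylases, which shorten the poly(A) tail, and of their partner proteins were tested. In TE none was called in ctrl cells (4.68% of all transcripts) and 3 were called higher in KO cells (10.6% of all). In footprints 2 were called higher in ctrl (5.69% of all) and 6 in KO cells (18.5% of all), and none lower (9.93% and 22.1% of all), so that the shares called in either direction were near those of all transcripts (15.6% and 40.6%). Those called were, among others, Cnot2 (0.60 ± 0.17, adjusted p = 0.0200 in ctrl, and 0.52 ± 0.12, adjusted p = 0.000573 in KO) and, in KO cells, Cnot8 (0.49 ± 0.13, adjusted p = 0.00255). The median footprint change of the list was 0.16 in ctrl and 0.28 in KO cells, against 0.017 and 0.016 over all transcripts.

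The footprints of both Y-box genes fell with Torin1 in both genotypes, and those of Ybx1 fell further in KO cells. Ybx1 (chr4:119277981-119294604, minus strand), which packages mRNA and represses its translation when abundant, had footprints at 751 and 984 CPM in ctrl DMSO and at 562, 585 and 605 in ctrl Torin1. In KO cells they were at 802, 804 and 663 in DMSO and at 264, 312 and 257 in Torin1. The Torin1 libraries lay below the DMSO libraries in both genotypes, and the KO Torin1 libraries below all others. The decrease was 1.47-fold in ctrl cells (log2 -0.56 ± 0.15, adjusted p = 0.0136) and 2.76-fold in KO cells (log2 -1.47 ± 0.11, adjusted p = 2.49e-12). In ctrl cells the call was lost without scaling beyond library size (-0.35, adjusted p = 0.0959), without the shallow DMSO replicate 3 (-0.36, adjusted p = 0.0692), and without Torin1 replicate 2 (adjusted p = 0.0776) or 3 (adjusted p = 0.0670). Its mRNA was at 687 to 831 CPM in ctrl DMSO and 690 to 748 in ctrl Torin1, and at 712 to 774 in KO DMSO and 645 to 718 in KO Torin1, and was not called (-0.13 in both). TE fell 2.52-fold in KO cells (log2 -1.34 ± 0.13, adjusted p = 2.00e-08), and in ctrl cells the change was -0.43 ± 0.18 (adjusted p = 0.240).

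Ybx3 (chr6:131364855-131388476, minus strand), also known as DNA-binding protein A or MSY4, had footprints at 302 and 370 CPM in ctrl DMSO and at 161, 146 and 171 in ctrl Torin1, and at 285, 275 and 210 in KO DMSO and 91.2, 103 and 106 in KO Torin1. As for Ybx1, no library of one treatment reached the range of the other, and the KO Torin1 libraries were the lowest. Footprints fell 2.08-fold in ctrl cells (log2 -1.05 ± 0.15, adjusted p = 5.22e-05) and 2.61-fold in KO cells (log2 -1.38 ± 0.13, adjusted p = 1.57e-10). The mRNA was at 484 to 556 CPM in ctrl DMSO and 426 to 477 in ctrl Torin1, and at 448 to 505 in KO DMSO and 416 to 434 in KO Torin1. These did not overlap either, though the changes, -0.23 ± 0.11 and -0.15 ± 0.065, were not called (adjusted p = 0.230 and 0.157). TE fell 1.78-fold in ctrl cells (log2 -0.83 ± 0.18, adjusted p = 0.00707) and 2.35-fold in KO cells (log2 -1.23 ± 0.15, adjusted p = 4.92e-07).

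Of 14 cold shock relatives and partners of Y-box proteins 10 were tested, and in TE none was called in ctrl cells (4.68% of all transcripts) and 4 were called lower and 1 higher in KO cells (17.8% and 10.6% of all). Their median TE change was -0.37 in ctrl and -0.33 in KO cells. Fxr1, a relative of the fragile X protein, had a TE change of -0.60 ± 0.20 in ctrl (adjusted p = 0.0980) and -0.61 ± 0.11 in KO cells (adjusted p = 0.000200). In footprints it was called lower in both genotypes (-0.50 ± 0.15, adjusted p = 0.0309 in ctrl, and -0.49 ± 0.11, adjusted p = 0.000488 in KO).

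Pdcd4 (chr19:53892231-53929860, plus strand), the inhibitor of eIF4A, was the only member whose mRNA was called with Torin1 without a replicate block. It stood at 14.7, 15.5 and 18.4 CPM in ctrl DMSO and at 39.8, 50.9 and 44.1 in ctrl Torin1, and at 14.6, 19.5 and 16.0 in KO DMSO and 47.8, 53.0 and 51.4 in KO Torin1. The highest DMSO library was at less than 20 CPM and the lowest Torin1 library at nearly 40. The increase was 2.77-fold in ctrl cells (log2 1.47 ± 0.14, adjusted p = 0.000134) and 3.05-fold in KO cells (log2 1.61 ± 0.11, adjusted p = 3.50e-06), above 99.7% of transcripts in both. The footprints rose with it, from 25.2 and 30.8 CPM to 94.1, 99.9 and 99.9 in ctrl cells and from 39.1, 37.2 and 30.6 to 111, 110 and 96.6 in KO cells. They were 3.71-fold higher in ctrl (log2 1.89 ± 0.19, adjusted p = 1.03e-06) and 2.93-fold higher in KO cells (log2 1.55 ± 0.14, adjusted p = 1.10e-10), on 19 to 252 counts per library. The TE change was not called in either genotype, at 0.41 ± 0.25 in ctrl (adjusted p = 0.465) and -0.054 ± 0.18 in KO cells (adjusted p = 0.851), and without scaling beyond library size the second was 0.19.

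Of 11 genes of the PDCD4 pathway (the kinases and ligase subunits that act on it and the eIF4F subunits) 10 were tested. In TE 2 were called lower in ctrl cells (4.29% of all transcripts), and 2 lower and 1 higher in KO cells (17.8% and 10.6% of all), where the share called was near that of all transcripts (28.4%). The 2 were Eif4a2, a paralogue of the helicase that PDCD4 binds (-1.70 ± 0.20, adjusted p = 7.85e-06 in ctrl, and -1.58 ± 0.14, adjusted p = 1.22e-09 in KO), and Eif4b, a cofactor of the helicase (-1.27 ± 0.18, adjusted p = 5.04e-05, and -1.24 ± 0.13, adjusted p = 3.10e-08). Both were also called lower in footprints in both genotypes.

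Since 6 of the members form pairs of paralogues, the ratio within each pair was compared between Torin1 and DMSO by an exact two-sided permutation test within genotype, for 3 pairs and 3 measures (9 tests, Benjamini-Hochberg adjusted). The LARP4 and PABP pairs shifted in footprints and in TE, and the Y-box pair did not pass the test. The log2 ratio of Larp4b to Larp4 in footprints was -1.03 and -1.05 in ctrl DMSO and -0.20, -0.12 and -0.33 in ctrl Torin1, and -0.94, -1.22 and -1.31 in KO DMSO and -0.55, -0.13 and -0.19 in KO Torin1. Every Torin1 library was above every DMSO library, with a mean shift of 0.84 (exact permutation p = 0.005, adjusted p = 0.0112), and 0.92 in TE (exact p = 0.005, adjusted p = 0.0112). In mRNA the shift was -0.14 (exact p = 0.055, adjusted p = 0.099). For footprints and TE, 0.005 is the smallest p that the 200 arrangements can give.

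The log2 ratio of Pabpc4 to Pabpc1 in footprints was -2.12 and -2.22 in ctrl DMSO and -1.44, -0.74 and -1.29 in ctrl Torin1, and -2.23, -2.14 and -2.41 in KO DMSO and -0.57, -0.66 and -1.04 in KO Torin1. The mean shift was 1.26 (exact permutation p = 0.005, adjusted p = 0.0112), and 1.25 in TE (exact p = 0.005, adjusted p = 0.0112), while the ratio of the mRNAs shifted by -0.018 (exact p = 0.755). In footprint CPM Pabpc1 was above Pabpc4 in every library, and in Torin1 by less. The log2 ratio of Ybx3 to Ybx1 in footprints was -1.32 and -1.41 in ctrl DMSO and -1.80, -2.00 and -1.82 in ctrl Torin1, and -1.49, -1.55 and -1.66 in KO DMSO and -1.53, -1.60 and -1.28 in KO Torin1. It went down in all ctrl libraries, by 0.51, and moved by 0.097 in KO cells with overlap, a difference between the genotypes that was not tested. Over both genotypes the shift was -0.21 (exact permutation p = 0.175, adjusted p = 0.225). With the replicate number as a block the shifts in footprints were 0.83 for Larp4b over Larp4 and 1.23 for Pabpc4 over Pabpc1, and in TE 0.93 and 1.23. With 5 pairs of libraries the smallest p that sign flips can give is 0.0625, which all 4 reached.

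**Figure D4:**
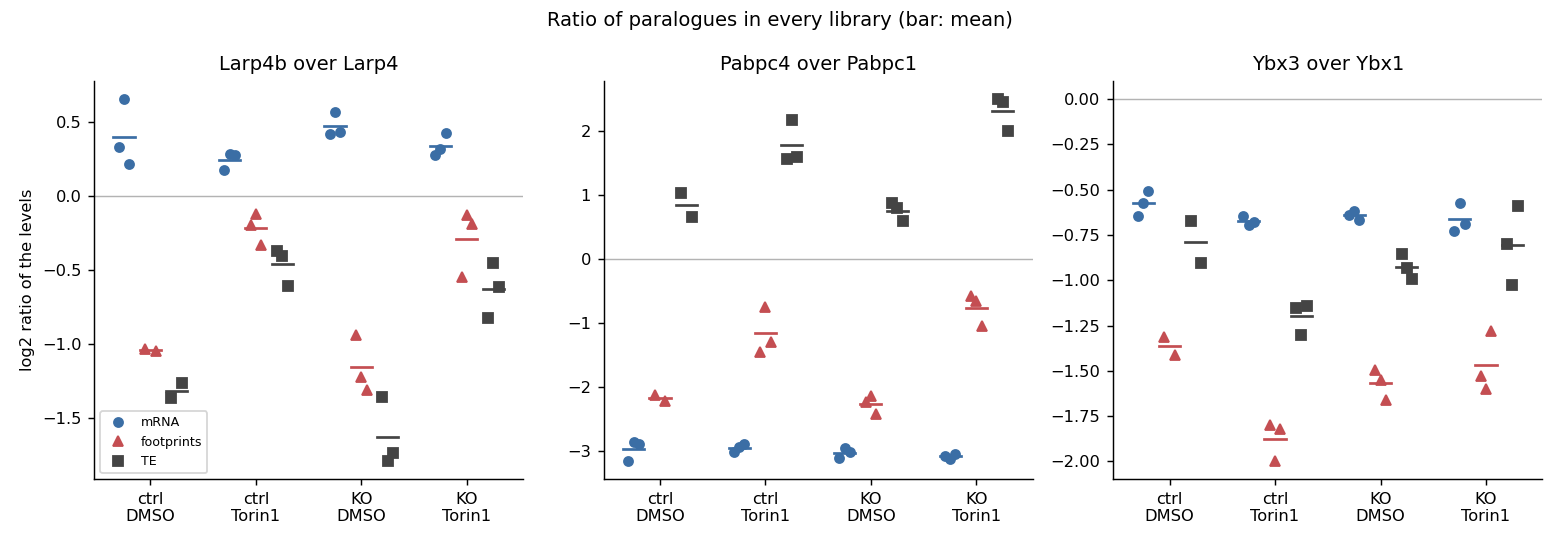
Log2 ratio of the levels of paralogues in every library, for mRNA, footprints and TE (1 symbol per library, bar at the mean). For Larp4b over Larp4 and Pabpc4 over Pabpc1 the footprint and TE ratios of all Torin1 libraries lie above those of all DMSO libraries, while the mRNA ratios overlap.

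The comparison of KO with ctrl cells asked whether these mRNAs differ between the genotypes. The replicates are passages of the cells, so an effect of eIF4E3 loss cannot be told apart from other differences between the selected populations. In DMSO no member was called in mRNA (0.0183% of 10924 transcripts), footprints (0.0279% of 10757) or TE (0.0% of 10475) with edgeR, and none with DESeq2. At an unadjusted p under 0.05 there were 0, 1 and 0 members, the 1 being Ybx3 in footprints (-0.37 ± 0.17, adjusted p = 0.619). In mRNA, Larp4b stood at 0.47 ± 0.27 (adjusted p = 0.683) and Larp4 at 0.34 ± 0.34 (adjusted p = 0.710). With the replicate number as a block both were called, Larp4b at 0.53 (adjusted p = 0.000249) and Larp4 at 0.45 (adjusted p = 0.00461). With that block 7.93% of all transcripts were called in this comparison. In numbered pairs of DMSO libraries, KO was above ctrl in 3 of 3 for both genes.

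In Torin1 the Y-box genes differed between the genotypes in footprints and TE, while their mRNA levels were not called. In footprints 2 of the 8 members were called, both lower in KO cells (6.03% of 10792 transcripts were called, 4.01% lower), and in TE the same 2 (2.85% of 10509, 2.26% lower). Ybx1 footprints were at 264, 312 and 257 CPM in KO and 562, 585 and 605 in ctrl, 2.10-fold lower (log2 -1.07 ± 0.10, adjusted p = 1.51e-09), and its TE was 0.367, 0.484 and 0.383 against 0.752, 0.848 and 0.865 (1.99-fold lower, log2 -0.996 ± 0.11, adjusted p = 1.40e-06). The libraries of the genotypes did not overlap. Ybx3 footprints were at 91.2, 103 and 106 against 161, 146 and 171 CPM, 1.60-fold lower (log2 -0.67 ± 0.12, adjusted p = 0.000271), and its TE at 0.210, 0.237 and 0.254 against 0.338, 0.343 and 0.391 (1.52-fold lower, log2 -0.61 ± 0.12, adjusted p = 0.00474). With all conditions in 1 fit the TE of Ybx3 was no longer called (-0.61, adjusted p = 0.0656). In mRNA no member was called with edgeR (1.96% of 11007 transcripts) or DESeq2, and 1 had an unadjusted p under 0.05, Larp4b at 0.23 ± 0.067 (adjusted p = 0.0968), which was called with the replicate block (0.23, adjusted p = 0.00148). The mRNA changes of Ybx1 and Ybx3 were -0.067 ± 0.053 and -0.059 ± 0.052 (adjusted p = 0.550 and 0.605). The 6 other members had footprint changes between -0.31 (Pabpc1, adjusted p = 0.277) and 0.15 (Larp4, adjusted p = 0.464), none of them called.

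**Figure D5:**
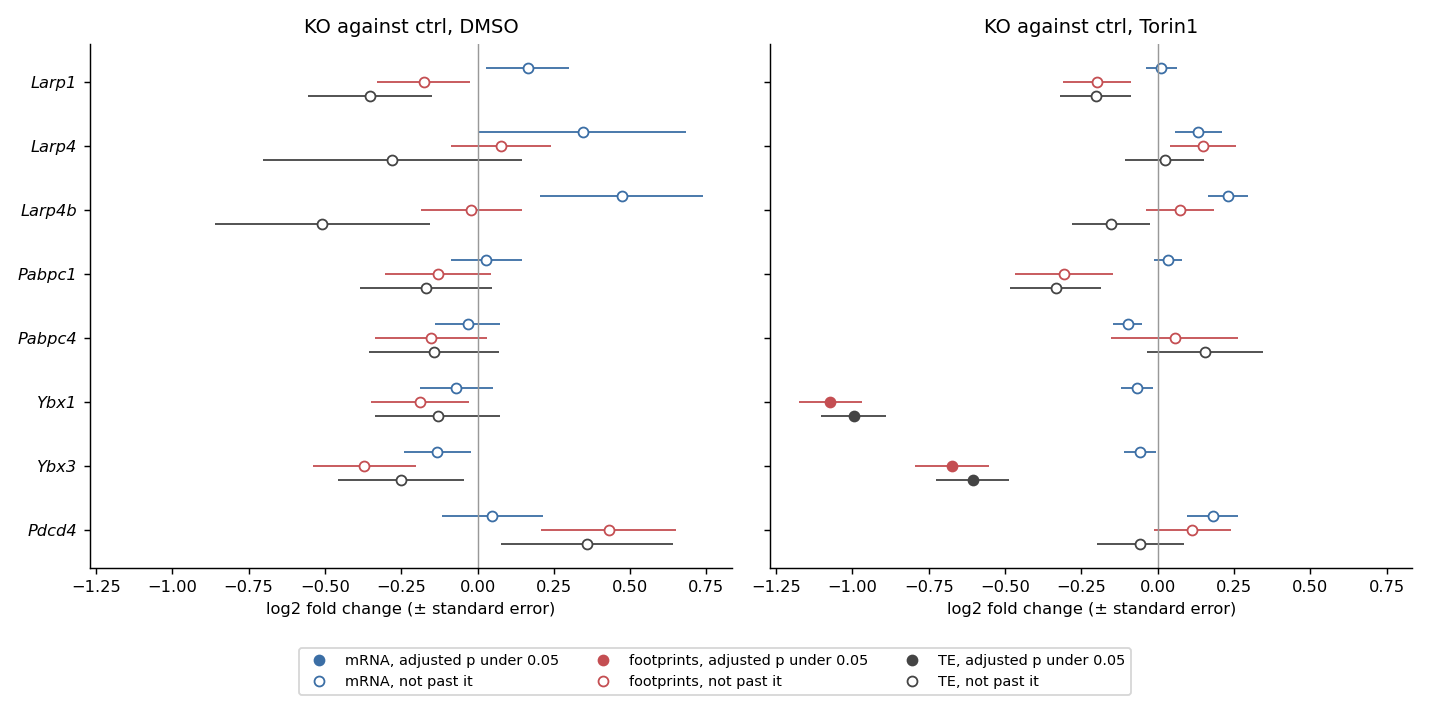
Log2 fold change with its standard error for KO against ctrl in DMSO (left) and in Torin1 (right), from edgeR, in mRNA, footprints and TE. Filled symbols are past an adjusted p of 0.05. In Torin1, Ybx1 and Ybx3 are filled in footprints and TE, and no symbol is filled in DMSO.

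Whether Torin1 acted differently in the genotypes was tested by the interaction of genotype with treatment. In footprints 1 of the 8 members was called (0.114% of 10563 transcripts), Ybx1, which fell 1.85-fold further in KO than in ctrl cells (log2 -0.89 ± 0.18, adjusted p = 0.0366). It remained called with DESeq2 (adjusted p = 0.00299), without scaling (adjusted p = 0.0457), without a filter on low counts (adjusted p = 0.0367) and with the replicate block (adjusted p = 0.0178). Of the 11 fits that leave out a ribo-seq library it was called in 2, without ctrl DMSO replicate 3 and without KO DMSO replicate 3, and the other 9 gave -0.69 to -0.98 with adjusted p from 0.0508 to 0.164. In TE no member was called (0.0% of 10376), and Ybx1 stood at -0.89 ± 0.22 (adjusted p = 0.193), the 1 member with an unadjusted p under 0.05, which was called with DESeq2 (-0.91, adjusted p = 0.0472). For Ybx3 the interaction was -0.31 ± 0.20 in footprints (adjusted p = 0.849). In mRNA no member was called (0.0% of 11072), none had an unadjusted p under 0.05 and none was called with DESeq2.

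The transcripts whose footprints were most like those of each member were found by Pearson's r of log2 CPM over the 11 ribo-seq libraries, among 9830 transcripts with a mean of at least 10 footprints. The libraries share the split between Torin1 and DMSO, which sets most of these values, so they describe the pattern and nothing else. Pabpc1 was most like Eef2 (r = 0.995), Naa10 (0.992) and Rpn1 (0.991), and Pabpc4 most like Rps27 (0.980), Fam171a2 (0.975) and Sort1 (0.971). For Ybx3 these were Polr1c (0.992), Fkbp4 (0.990) and Tmem234 (0.981), and for Ybx1, H2-Q7 (0.976), Rcn3 (0.973) and H2-Q10 (0.972), the histocompatibility genes being near-identical copies whose reads cannot be split with certainty. Larp1 was most like Gabbr1 (0.973), Adh5 (0.969) and Adgrl1 (0.967), Larp4b like Rnf103 (0.982), Zbtb10 (0.974) and Irf2bpl (0.969), and Pdcd4 like Crebrf (0.985), Enc1 (0.980) and Egr1 (0.976). Larp4 had no transcript above r = 0.923 (Lztfl1), followed by Nedd4 (0.902) and Caprin1 (0.870). Among the members themselves Pabpc1 and Pabpc4 had an r of 0.966, Larp1 and Ybx3 of 0.956 and Ybx1 and Ybx3 of 0.948, while Pdcd4 was at 0.932 with Larp4b and at -0.976 with Pabpc1.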

How the data were processed

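RNA-seq (12 libraries) and ribo-seq (11 libraries) of N2a cells were used. The authors trimmed ribo-seq reads with cutadapt and kept footprints of 25 to 35 nt. Reads of both assays were mapped with HISAT2 to mm10, and rRNA, tRNA and pseudogene reads were removed. The rest were realigned with bowtie2 to the canonical Ensembl 84 transcripts. P-sites of footprints were placed with riboWaltz, and unnormalized counts per CDS were deposited for both assays. Reads that fit several transcripts may be placed on any of them. The tables also hold the authors' fold changes and p-values, which were not used, and nor were the TE tables. The members and gene lists were chosen with earlier results of these data known.

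From the deposited counts, transcripts with more than 1 CPM in all libraries of at least 1 condition were tested with edgeR 4.0.16 (R 4.3.3, limma 3.58.1; TMM, glmQLFit and glmQLFTest, Benjamini-Hochberg adjusted p under 0.05) in 5 comparisons of mRNA, footprints and TE. TE was the interaction of assay and condition in 1 model of both assays, and TE per library the ratio of the CPM of libraries with the same number. Paralogue ratios (0.5 counts added) were compared by exact permutation, and figures drawn with matplotlib 3.10.9 (Python 3.11.15, numpy 2.4.6, pandas 2.3.3). Alternatives were DESeq2 1.42.0, no scaling beyond library size, no filter, all conditions in 1 fit, a replicate block and leaving out each library. The scripts were tested on simulated data. Named relatives, partners and most-alike transcripts (3 per member, of those with a mean of at least 10 footprints) followed rules set with the lists.

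The treatment protocol in the labels gives each replicate as another passage of the cells. The numbers were taken to pair the libraries in the fits with a replicate block and in the TE per library. The main fits had no block, so calls given without mention of one leave this pairing out. Deviations from the group means of libraries with the same number had correlations of -0.0424 to 0.737 in RNA-seq (median 0.147) and -0.0386 to 0.144 in ribo-seq (median 0.0502). For libraries with different numbers these were -0.589 to 0.431 (median -0.0740) and -0.144 to 0.123 (median -0.0280). The p-values measure the spread between passages. Since a replicate number occurs 2 times within each genotype in the DMSO table that compares the genotypes by RNA-seq, its columns were taken as unnumbered, and block fits took the numbered counts of the Torin1 tables. The 5′ ends are from GENCODE M21 (8 of 8 members matched) and RefSeq (7 of 8).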

Additional observations from a re-analysis of the deposited data

Results flagged for a closer look

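The footprints of Ybx1 were the 1 member value whose response to Torin1 differed between the genotypes by a test of the difference itself. The interaction was -0.89 on the log2 scale (edgeR, adjusted p = 0.0366), with a change of -0.56 in ctrl and -1.47 in KO cells. It was called in 6 of 15 alternative fits, and leaving out 1 ribo-seq library gave an adjusted p of up to 0.164 (edgeR). In TE the interaction of Ybx1 was not called (edgeR, adjusted p = 0.193). Groups of 2 or 3 libraries are too small for a check of single libraries that stand apart.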

How the results depend on the processing

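Of 1680 member values under the alternatives, 27 lay on the other side of the threshold and 15 took the other sign by more than 1 SE, none of the latter called in either fit. With the replicate block 2 members were called in mRNA with Torin1 in ctrl cells (Larp4 and Pdcd4), 2 in KO against ctrl in DMSO (Larp4 and Larp4b) and 1 in Torin1 (Larp4b), and the paralogue shifts in footprints and TE (0.83 and 0.93 for Larp4b over Larp4, 1.23 and 1.23 for Pabpc4 over Pabpc1) had the smallest p that 5 pairs allow, 0.0625 (adjusted p = 0.141). Beside these and the TE of Larp1 in KO cells the block changed no call of a member. With all conditions in 1 fit 1 member was called in TE for KO against ctrl in Torin1, and with DESeq2 1 in the TE interaction.

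Leaving out 1 library at a time gave 1 to 2 members called in mRNA with Torin1 in KO cells (2 without RNA-seq KO DMSO replicate 2, when Larp1 was at -0.19, adjusted p = 0.0293), 4 to 6 in footprints with Torin1 in ctrl cells and 0 to 1 in the footprint interaction. The mRNA ratio of Larp4b to Larp4 ranged from -0.19 to -0.079 and passed the test without RNA-seq ctrl DMSO replicate 3 (-0.19, adjusted p = 0.0281), and that of Ybx3 to Ybx1 from -0.084 to -0.043, passing without KO Torin1 replicate 2 (-0.084, adjusted p = 0.015). The TE ratio of Pabpc4 to Pabpc1 ranged from 1.15 to 1.34 and did not pass without ribo-seq ctrl DMSO replicate 3 (1.16, adjusted p = 0.0563). Their mRNA ratio ranged from -0.067 to 0.010, with the other sign without KO DMSO replicate 2 (0.00081), ctrl DMSO replicate 2 (0.010) or ctrl DMSO replicate 3 (0.0019).

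Other values took the other sign when a library was left out, with these ranges. In mRNA the change with Torin1 in KO cells was -0.029 to 0.31 for Larp4 and -0.11 to 0.17 for Larp4b (lowest without RNA-seq KO DMSO replicate 2), and KO against ctrl in DMSO -0.0068 to 0.72 for Larp4. In footprints Larp4 was at -0.34 to 0.027 with Torin1 in ctrl cells (highest without ribo-seq ctrl DMSO replicate 3). For KO against ctrl in DMSO, footprints were at -0.13 to 0.26 for Larp4, -0.41 to 0.15 for Pabpc1 and -0.39 to 0.013 for Ybx1, and TE at -0.44 to 0.11 for Pabpc1 and -0.32 to 0.078 for Ybx1, each range set by leaving out ctrl DMSO replicate 1 or 3. The interaction of Pabpc1 was -0.45 to 0.090 in footprints and -0.46 to 0.082 in TE, and the TE of Pabpc4 for KO against ctrl in Torin1 -0.046 to 0.36. Without scaling, the footprints of Larp4 with Torin1 were at 0.068 (ctrl) and 0.15 (KO), and the TE of Pdcd4 in KO cells at 0.19. The cause was not tested.

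Over all transcripts, calls in mRNA with Torin1 went from 299 to 723 (DESeq2), 1328 (block) and 1221 (1 fit) in ctrl cells and from 1097 to 1797 (block) and 557 (1 fit) in KO cells. For KO against ctrl in mRNA they went from 2 to 21 (DESeq2), 0 (no scaling), 4 (no filter), 866 (block) and 19 (1 fit) in DMSO, and from 216 to 342 (DESeq2), 1041 (block) and 6 (1 fit) in Torin1. In footprints they went from 1670 to 956 (DESeq2) with Torin1 in ctrl cells, from 651 to 422 (DESeq2) and 411 (1 fit) for KO against ctrl in Torin1, and from 12 to 38 (DESeq2) and 35 (block) in the interaction. In TE they went from 488 to 846 (1 fit) in ctrl cells, from 299 to 506 (DESeq2), 543 (block) and 72 (1 fit) for KO against ctrl in Torin1, and from 0 to 16 (DESeq2) in the interaction. Depth limits the footprints of Pdcd4 and Pabpc4 most, with as few as 19 and 31 counts in a library.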
